A study of Mus musculus with 15 samples.

Results

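The interferon regulatory factor genes are described here through 3 histone marks around Irf1, Irf2, Irf3, Irf4, Irf5, Irf7, Irf8 and Irf9 during the conversion of pre-B cells into macrophage-like cells. The 8 members were taken by symbol from the mm9 annotation, in which 22202 protein-coding genes on chromosomes 1 to 19 and X had a start site. For each gene the start was the 5′ end of the coding transcript with the longest coding sequence, and the mark was measured in the 3 kb centred on it and in 26 further windows of 3 kb on each side. ChIP-seq libraries for H3K27Ac, H3K4Me1 and H3K27Me3 came from C10 cells, a derivative of the HAFTL mouse pre-B line. All 15 libraries came from this 1 line, which carries the GFP-marked C/EBPα-estrogen receptor fusion C/EBPαER, including the controls. Induced cells received β-estradiol with IL-3 and CSF-1 for 3, 12, 24 or 48 hours (hpi), and the labels give ethanol solvent for control cells, here the 0 hpi libraries. Each mark had 1 library per time, so the differences below have no replicate check and no test was made.

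Irf proteins bind short GAAA repeats in DNA. Irf3 and Irf7 are held in the cytoplasm and enter the nucleus after viral sensing to switch on interferon genes, and Irf5 acts downstream of Toll-like receptors. Irf9 is the DNA-binding part of the complex that carries the signal of type I interferon, Irf1 activates interferon-responsive genes and Irf2 competes with it at many of the same sites. Irf4 and Irf8 are the lineage-restricted members: both pair with Ets factors such as PU.1 on composite elements, together they are needed for pre-B cells to mature, and Irf8 also directs monocyte development. H3K27Ac marks active promoters and enhancers, H3K4Me1 marks enhancers whether active or not, and H3K27Me3 is laid down by Polycomb complexes on silent genes.

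The promoters are shown first because 3 of the 8 members carry a gamma-activated site in them, the sequence bound by Stat dimers, and because Irf4 and Irf7, the members with the largest fall and the largest rise of H3K27Ac in the 3 kb at the start, carried none of the searched elements before the start used here. Each line gives the 250 bases before the start on mm9, 5′ to 3′ along the gene, and capitals mark matches to an interferon-stimulated response element (GAAANNGAAA), an Ets-Irf composite element (GGAANNGAAA), a gamma-activated site (TTCNNNGAA) or a C/EBP site (TTGCNNAA) on either strand.
Irf1 promoter, chr11:53583266-53583515, plus strand: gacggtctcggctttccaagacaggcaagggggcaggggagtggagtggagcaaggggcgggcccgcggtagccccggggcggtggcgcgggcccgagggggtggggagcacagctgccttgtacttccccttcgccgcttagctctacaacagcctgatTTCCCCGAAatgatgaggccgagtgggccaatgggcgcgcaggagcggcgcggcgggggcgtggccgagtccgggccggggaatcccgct
Irf2 promoter, chr8:47824849-47825098, plus strand: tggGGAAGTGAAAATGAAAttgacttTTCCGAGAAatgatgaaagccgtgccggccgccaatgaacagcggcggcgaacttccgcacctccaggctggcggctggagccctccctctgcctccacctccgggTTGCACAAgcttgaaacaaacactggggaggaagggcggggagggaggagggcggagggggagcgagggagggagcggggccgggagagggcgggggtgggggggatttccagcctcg
Irf8 promoter, chr8:123260008-123260257, plus strand: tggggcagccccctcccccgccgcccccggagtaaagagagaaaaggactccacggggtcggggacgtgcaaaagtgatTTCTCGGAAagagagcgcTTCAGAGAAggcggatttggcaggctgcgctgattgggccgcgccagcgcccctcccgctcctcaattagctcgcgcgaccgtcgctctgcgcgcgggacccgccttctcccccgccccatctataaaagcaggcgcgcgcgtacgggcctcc
Irf5 promoter, chr6:29479032-29479281, plus strand: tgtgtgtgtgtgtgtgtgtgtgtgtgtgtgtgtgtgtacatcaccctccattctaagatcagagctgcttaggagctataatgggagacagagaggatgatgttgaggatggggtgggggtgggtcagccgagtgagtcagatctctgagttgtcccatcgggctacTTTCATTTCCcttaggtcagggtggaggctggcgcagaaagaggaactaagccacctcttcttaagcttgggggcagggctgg
Irf4 promoter, chr13:30840845-30841094, plus strand: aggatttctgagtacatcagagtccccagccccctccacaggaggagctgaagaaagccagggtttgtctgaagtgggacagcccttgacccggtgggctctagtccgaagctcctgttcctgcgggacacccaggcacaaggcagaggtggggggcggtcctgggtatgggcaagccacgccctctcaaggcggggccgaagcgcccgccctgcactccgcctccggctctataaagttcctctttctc
Irf7 promoter, chr7:148452381-148452630, minus strand: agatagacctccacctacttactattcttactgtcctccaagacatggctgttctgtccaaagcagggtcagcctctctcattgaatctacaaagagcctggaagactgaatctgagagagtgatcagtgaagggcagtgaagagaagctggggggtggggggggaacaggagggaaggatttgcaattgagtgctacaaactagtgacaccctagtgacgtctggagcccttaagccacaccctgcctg

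The gamma-activated site reads the same on both strands, so each match counts once per strand. Irf8 held 2 such sites, at -171 and -153 from the start, Irf1 held 1 at -90 and Irf2 held 1 at -224. Over 250 bases before to 50 after the start, 7.85% of all 22202 promoters held this site. In Irf2 the composite element at -247 and the response element at -241 shared 4 bases, and they were found in 2.78% and 3.82% of all promoters. Irf5 held a composite element at -83. A C/EBP site, found in 10.2% of all promoters, lay at -118 in Irf2 and at -45 in Irf9. The Irf3 promoter, before chr7:52253018 on the plus strand, had no match either. The Irf8 and Irf1 promoters were rich in CpG dinucleotides, with 38 and 32 in 300 bases, and the Irf7 and Irf5 promoters were poor, with 3 and 4, against a median of 12 over all promoters. A match in these letters is a description and not a bound site.

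Tags were thinned to the same number in every library of a mark: 15216488 tags for H3K27Ac, 10913733 for H3K4Me1 and 15338280 for H3K27Me3. This made depth equal but not the share of tags in enriched 1 kb bins. That share ran from 62.7% to 77.6% for H3K27Ac and from 55.6% to 69.4% for H3K4Me1. Changes over time therefore depend on the scaling, and values under 2 other scalings are given for part of the results. Deposited libraries held 11041458 to 31557475 tags. The genome mean per 3 kb was 19.3 tags for H3K27Ac, 13.9 for H3K4Me1 and 18.9 for H3K27Me3, and a window was called enriched from 35, 28 and 35 tags, the counts that a Poisson law reaches with a probability below 0.001. A change is the log2 of the ratio of tags plus 5, with the 95% interval of the plain ratio of the 2 counts in parentheses. A call of higher or lower means a change of at least 2-fold. The intervals cover counting error only, and all times share the same 0 hpi library. The cells went from a pre-B to a macrophage pattern: all 8 pre-B markers were lower in H3K27Ac at 48 hpi, with a median change of -1.60, 7 of 8 macrophage markers were higher, with a median of 2.49, and none of 5 T cell markers moved past 2-fold. With bins enriched at all times as the reference 6 pre-B markers were lower. The part of this shift in the members' changes was not tested. In a mixed population, fewer cells with a mark and less of it per cell cannot be told apart.

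H3K27Ac in thinned tags at the starts separated 1 member that gained the mark, 2 that lost it and 5 that stayed within 2-fold at 48 hpi. The split depends on the settings: Irf8 was at -0.77 with bins enriched at all times as the reference, and Irf7 at 0.87 in the central 1 kb. All 8 starts were enriched for H3K27Ac at all 5 times, against 46.2% to 47.0% of all starts. Higher at 48 hpi was Irf7, 1 of 8 against 5.36% of all starts, and lower were Irf4 and Irf8, 2 of 8 against 9.35%. Among the 10264 starts that were enriched at 0 hpi, as all members were, 2.52% were higher and 15.8% were lower. The median change of the members was -0.79 and that of all starts -0.14.

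Irf4, which acts again later in plasma cells, lost most in the 3 kb at its start, though in the central 1 kb its change of -1.15 lay beside -1.23 at Irf8. The 3 kb held 387, 372, 264, 270 and 108 H3K27Ac tags at 0, 3, 12, 24 and 48 hpi. The change at 48 hpi was -1.79 (-2.16 to -1.53), and the largest part of it fell between 24 and 48 hpi. Irf8 went from 526 to 469, 361, 383 and 230 tags, a change of -1.18 (-1.42 to -0.97). Both remained enriched at 48 hpi, at 5.61 and 11.9 times the genome mean. A later Irf8 start, that of transcript Irf8-003, held more, with 1002, 552, 578, 680 and 447 tags.

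Irf7, the amplifier of the type I interferon response, was the lowest member at 0 hpi and the only one whose start was higher at 48 hpi. It held 45, 62, 97, 112 and 108 tags, a change of 1.18 (0.75 to 1.80). The call was already met at 12 hpi, with 1.03 (0.58 to 1.65), and at 24 hpi, with 1.23 (0.80 to 1.85), although with background bins as the reference the 12 hpi value was 0.92, short of 2-fold. Irf7 was the single member called higher at 12 and 24 hpi, where 4.31% and 4.72% of all starts were, and no member was lower then, against 3.19% and 8.85%. With background bins as the reference, which multiplied the 24 hpi tags by 1.69, Irf1 at 1.04 and Irf9 at 1.29 were higher at 24 hpi as well.

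Irf5 showed an early dip. Its start held 1029, 483, 589, 903 and 517 tags, so that the 3 hpi value was lower by -1.08 (-1.25 to -0.93) and the 48 hpi value, at -0.99 (-1.15 to -0.84), ended just short of 2-fold, past which it came with another random thinning. With bins enriched at all times as the reference the 3 hpi value was -0.96, also short of it. Irf5 was the only member lower at 3 hpi, where 1.80% of all starts were lower and 4.36% higher, with no member among the latter. Irf5 has 5 annotated coding starts, and the start used lies 2657 bp inside the gene record. At an inner start, that of transcript Irf5-201, the counts were 649, 263, 214, 307 and 288, while at the outermost, Irf5-001, they were 563, 456, 494, 762 and 404. The innermost start, Irf5-004, had low H3K27Ac, with 82, 65, 71, 102 and 112 tags.

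In thinned tags the other 4 members kept within 2-fold at every time. Irf2, with 1141, 1076, 945, 1021 and 657 tags, had the highest H3K27Ac of the family at 0 hpi, above 99.6% of all starts, and changed by -0.79 (-0.94 to -0.66). Irf3, which shares its start window with the divergent gene Bcl2l12, held 722, 853, 698, 788 and 415 tags, also -0.79 (-0.98 to -0.62). Irf1 held 448, 392, 386, 547 and 347 tags and Irf9 280, 323, 372, 409 and 229, both highest at 24 hpi. Their changes at 48 hpi were -0.36 (-0.57 to -0.16) and -0.28 (-0.55 to -0.03). The Irf9 start lies inside the neighbouring gene Rnf31. In all members but Irf7 and Irf5 the lowest H3K27Ac library was that of 48 hpi. The share of all starts lowest at that time was not counted. Tags in bins enriched at all times were also fewest at 48 hpi, while the median over all starts was highest then, at 1.14 times the genome mean. Scaling by bins that were enriched at all times multiplied the 48 hpi tags by 1.34 and turned Irf1 to 0.05 and Irf9 to 0.13, left Irf8 at -0.77 and so left 1 member higher and 1, Irf4, lower. In the central 1 kb alone Irf7 was at 0.87.

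**Figure D1:**
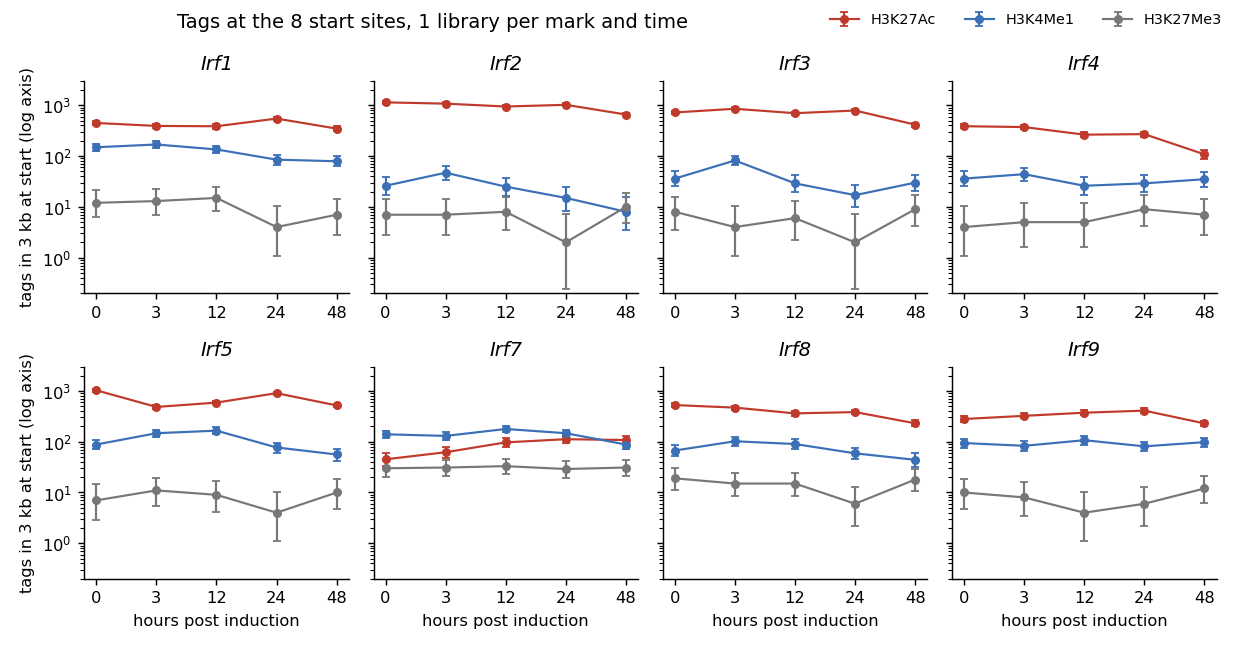
Tags in the 3 kb at each of the 8 start sites (log axis) against hours post induction for H3K27Ac, H3K4Me1 and H3K27Me3, with 95% Poisson intervals of the single count. H3K27Ac stays above the other marks at 7 starts throughout, while at Irf7 it begins at 45 tags, below H3K4Me1 at 140, and ends at 108 against 88.

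In thinned tags H3K4Me1 at the starts was highest at 3 or 12 hpi in all 8 members, and lowest at 48 hpi in Irf1, Irf2, Irf5, Irf7 and Irf8. The median over all starts took a like course, at 1.43, 1.58, 1.51, 1.29 and 1.15 times the genome mean. This course is thus not particular to the family. At 3 hpi 1 member, Irf3, was higher, with 36, 82, 29, 17 and 30 tags and a change of 1.09 (0.61 to 1.80), or 0.92 with bins enriched at all times as the reference, against 1.65% of all starts, and none was lower, against 1.75%. With background bins as the reference Irf2, Irf3 and Irf5 were higher at 3 hpi, and Irf5, Irf7 and Irf8 at 12 hpi. At 48 hpi no member was higher, against 3.36%, and 1, Irf2, was lower, against 9.73%. Irf2 held only 26, 47, 25, 15 and 8 tags, enriched at 3 hpi alone, so its change of -1.25 (-3.05 to -0.51) rests on small counts. Irf1 carried the most H3K4Me1 at 0 hpi, with 149, 169, 135, 85 and 79 tags, followed by Irf7 with 140, 130, 178, 147 and 88. Irf5 held 88, 147, 165, 77 and 56 and Irf8 67, 102, 90, 59 and 44, both above their 0 hpi value at 3 and 12 hpi and below it at 24 and 48 hpi. Irf9 held 81 to 107 tags and Irf4 26 to 44. These directions rest on the scaling: with background bins as the reference, which raises 48 hpi H3K4Me1 by 0.755, Irf5, Irf7 and Irf8 went from -0.61, -0.64 and -0.56 to 0.10, 0.08 and 0.14, Irf3 and Irf4 went from -0.23 and -0.04 to 0.44 and 0.64, and no member was lower. Irf1 and Irf9 went from -0.87 and 0.06 to -0.15 and 0.78 with that reference.

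In the 3 kb count H3K27Me3 was not enriched at any member start at any time, against 14.0% to 17.5% of all starts. Irf7 had the most, with 30, 31, 33, 29 and 31 tags, just under the 35 needed. In 1 kb bins, where 16 tags were needed, an enriched stretch of 9, 11, 10, 1 and 17 kb, with gaps of at most 1 bin, lay at or next to the Irf7 start at the 5 times, and none at the other members. Irf8 followed with 19, 15, 15, 6 and 18, and the other 6 members held 2 to 15 tags. At 24 hpi Irf8 was lower, by -1.13 (-3.28 to -0.28) on few tags, 1 of 8 against 3.84% of all starts, and none was higher, against 0.563%. No member was higher or lower at 48 hpi, where 1.51% and 1.96% of all starts were. Over the loci the mark averaged 0.253 to 1.42 times the genome mean: the 53 windows of Irf4 averaged 0.35 of it at 0 hpi with no enriched window at any time, whereas Irf1, at 1.33 times, had 11 enriched windows and Irf7, at 1.18 times, had 13.

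Over the whole loci the 3 members called at the start moved in the same direction as their start, by -1.12 at Irf4, -1.04 at Irf8 and 0.55 at Irf7, while Irf2 moved by 0.65 against -0.79 at its start. These sums are in thinned tags. Bins enriched at all times as the reference raise 48 hpi H3K27Ac by 0.42, which keeps these directions but takes the sums at Irf4 and Irf8 short of 2-fold. Of the 424 windows, 239 were enriched for H3K27Ac at some time, of which 51 (21.3%) were higher and 41 (17.2%) lower at 48 hpi. Over all 92223 enriched windows of the genome 37.1% were higher and 18.6% lower. With bins enriched at all times as the reference, the split in the loci became 86 higher and 26 lower, and with enrichment set at 4-fold over the genome mean it was 28 higher and 34 lower of 157. The genome shares were not recomputed under these settings, so these counts cannot be set against them. The 41 lower windows were unevenly spread: Irf8 held 19 of its 45 enriched windows and Irf4 15 of 37, Irf1 held 4 of 22, Irf3, Irf5 and Irf7 1 each, and Irf2 and Irf9 none. The higher windows were most frequent at Irf2, with 15 of 35, and Irf7, with 11 of 22, followed by Irf3 with 8 of 30, Irf1 with 6 of 22, Irf5 with 4 of 21, Irf4 with 3 of 37 and 2 each at Irf8 and Irf9. Neighbouring windows adjoin and are not independent.

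**Figure D2:**
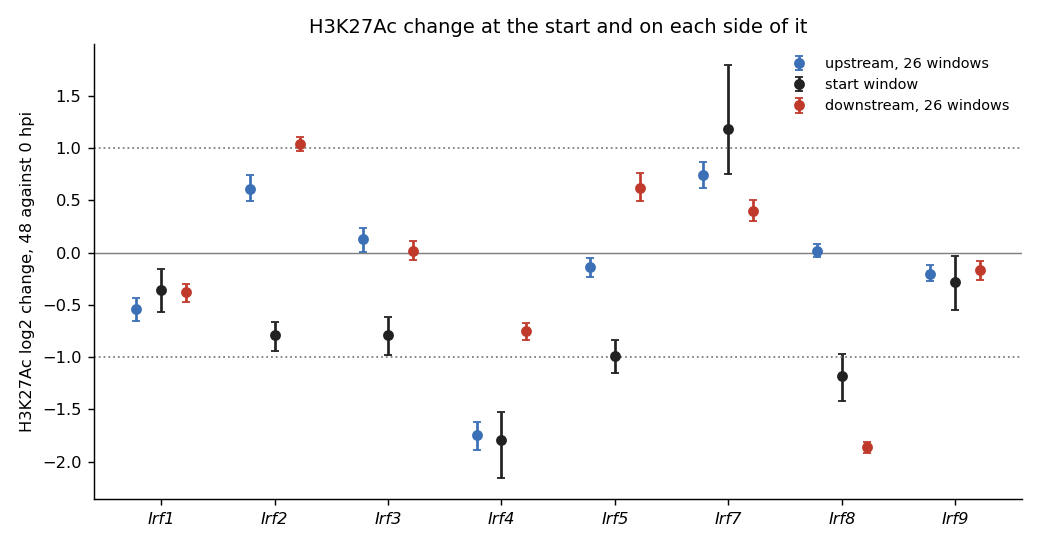
H3K27Ac change from 0 to 48 hpi (log2, vertical axis) at the start window of each member and in the summed 26 windows upstream and downstream, with 95% counting intervals and dotted lines at 2-fold. At Irf2 the start lies at -0.79 and the sides at 0.61 and 1.04, and at Irf8 the downstream side lies at -1.86 while the upstream side lies at 0.02.

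At Irf8 the upstream and downstream sides went different ways. The 26 windows downstream of the start, which cover the gene body and the DNA behind it, held 11508, 5346, 4352, 4036 and 3160 H3K27Ac tags. The 26 windows upstream held 4711, 5374, 6599, 6962 and 4775. The downstream change at 48 hpi was -1.86 (-1.92 to -1.81) and the upstream change 0.02 (-0.04 to 0.08). With bins enriched at all times as the reference they were -1.45 and 0.44. The downstream loss was early: by 3 hpi it was -1.11 (-1.15 to -1.06), or -1.46 and -0.98 under the other 2 scalings, and 10 of its 22 enriched windows were already lower, against 10.3% of enriched windows in the genome. At that time the start used here still had 469 of 526 tags. The later annotated starts Irf8-003 and Irf8-004, which lie in the downstream windows, had gone from 1002 to 552 and from 885 to 430. The whole Irf8 locus had the most H3K27Ac of the family, 16.4 times the genome mean over 53 windows at 0 hpi, and was still the highest at 48 hpi, at 8 times.

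The highest window of the locus at 0 hpi lay 30 kb downstream, beyond the Irf8 gene of 20.3 kb, and held 1363, 376, 391, 307 and 196 tags, a change of -2.77 (-3.02 to -2.58). The 12 kb window, in an Irf8 intron, went from 1042 to 345, 195, 180 and 133, or -2.92 (-3.24 to -2.71). These were the largest falls at Irf8. The 24 kb window was an exception among its neighbours, with 1339, 647, 588, 658 and 672 tags, and was left as the highest downstream window at 48 hpi.

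Upstream, the -39 kb window held 175, 568, 1060, 1062 and 520 tags, a change of 1.54 (1.32 to 1.83) at 48 hpi after a higher level at 12 and 24 hpi. The -54 kb window followed with 75, 100, 243, 293 and 180 tags, or 1.21 (0.87 to 1.67). Between them the -51 kb window held 950, 1037, 1105, 1281 and 940 tags and was the highest of the locus at 48 hpi, with a change of -0.02 (-0.15 to 0.12). All 3 lie in an intron of Gm20388, a gene model that runs across the Irf8 locus, and the nearest other start is that of Cox4i1. The highest window of the locus therefore lay downstream of the start in pre-B cells and upstream, at -51 kb, at all 4 later times.

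H3K4Me1 stayed enriched on the windows that lost most H3K27Ac. At 12 kb it was 431, 427, 391, 307 and 288 tags, a change of -0.57 (-0.80 to -0.36), and at 30 kb 453, 397, 446, 303 and 227, or -0.98 (-1.23 to -0.76). The -39 kb window held 276, 328, 513, 355 and 297, and so was enriched for H3K4Me1 already in pre-B cells. The -54 kb window went from 124 to 246 tags, or 0.96 (0.67 to 1.31). Over the 26 downstream windows H3K4Me1 changed by -0.57 (-0.63 to -0.50). These changes are in thinned tags. Background bins as the reference raise 48 hpi H3K4Me1 by 0.755, more than the falls at 12 kb and in this sum. The direction of those falls thus rests on the scaling, and single windows were not recomputed.

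**Figure D3:**
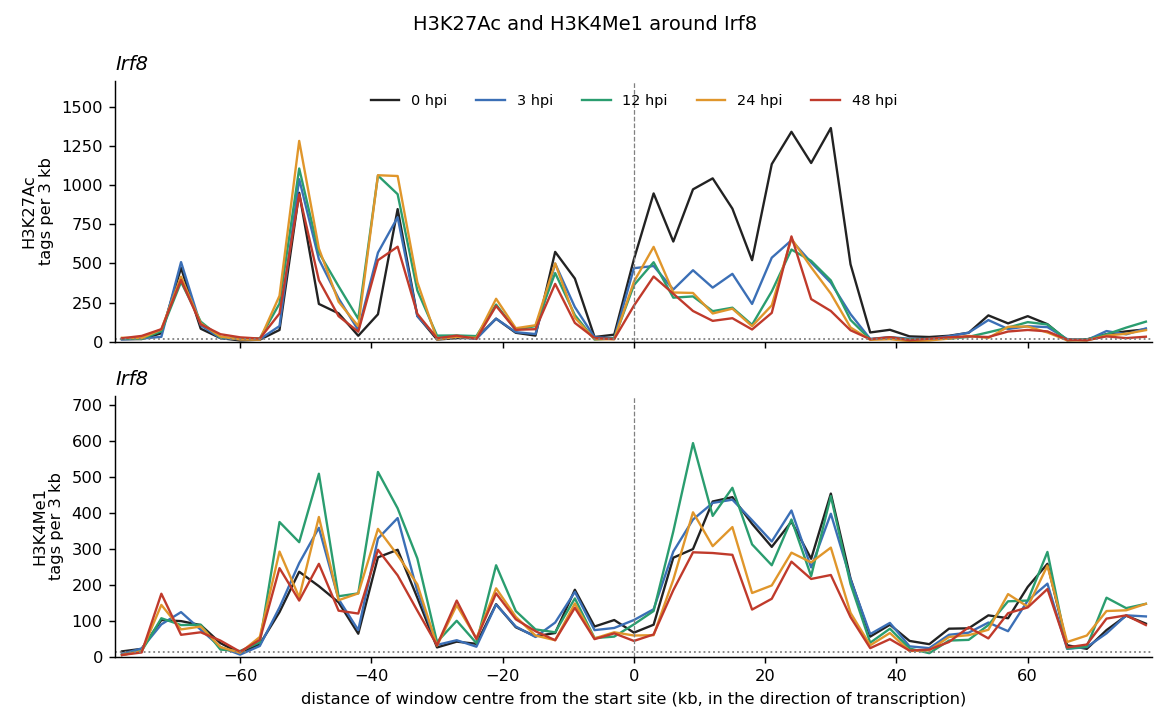
H3K27Ac (top) and H3K4Me1 (bottom) tags per 3 kb window against the distance from the Irf8 start in kb, 1 line per time, with the genome mean dotted. The 0 hpi line stands above the others from 3 to 33 kb in H3K27Ac, reaching 1363 tags, while at -39 kb the 12 and 24 hpi lines reach 1060 and 1062.

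At Irf4 the loss was on the upstream side first. The 26 upstream windows held 1969, 960, 781, 837 and 582 tags, a change of -1.75 (-1.89 to -1.62) at 48 hpi. Of this, -1.03 (-1.15 to -0.92) was reached by 3 hpi, when the start was at 372 of 387. With bins enriched at all times as the reference the changes were -1.34 at 48 hpi and -0.91 at 3 hpi. By 3 hpi 8 of 15 enriched upstream windows were lower, against 10.3% in the genome, and 1 was higher. The -27 kb window, between genes and the highest of the locus at 0 hpi, held 481, 216, 138, 91 and 51 tags, or -3.12 (-3.68 to -2.82). The -66 kb window, in an intron of the phosphatase gene Dusp22, held 124, 35, 19, 9 and 8, or -3.31 (-5.20 to -2.93). H3K4Me1 in these windows fell less, from 188 to 70 and from 135 to 60 tags.

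Downstream of Irf4 the sum was 2925, 3527, 3015, 3248 and 1735 tags. It changed by 0.27 (0.20 to 0.34) at 3 hpi, or -0.08 with background bins as the reference. At 48 hpi it changed by -0.75 (-0.84 to -0.67), or -0.34 with bins enriched at all times as the reference. At 3 hpi 6 of 21 enriched downstream windows were higher, against 11.3% of enriched windows in the genome, and 2 were lower, against 10.3%. Among them the 54 kb window held 8, 125, 58, 41 and 24 tags, the 27 kb window 14, 118, 81, 40 and 15, and the 72 kb window 79, 328, 159, 223 and 106. These 3 windows were picked after their values were seen, and all 3 fell again by 48 hpi from their 3 hpi peak. The 66 kb window, in the neighbouring gene Exoc2, was the highest of the locus at 48 hpi with 137, 185, 224, 355 and 208 tags. The 2 windows with the largest rise at Irf4 had low counts: -78 kb with 4, 26, 50, 103 and 45 tags and -6 kb with 7, 11, 10, 11 and 37.

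At Irf2 the gene body gained H3K27Ac while the start did not. The start went from 1141 to 657 tags, while the 26 downstream windows, all inside the Irf2 gene of 107.7 kb, went from 2390 to 2856, 4256, 5715 and 4917, a change of 1.04 (0.97 to 1.11), or 2.98 (2.65 to 3.66) in the 78 kb window, which held 38, 58, 209, 474 and 334. The highest window at 48 hpi, an intron window at 51 kb, held 204, 227, 446, 820 and 667 tags, or 1.68 (1.48 to 1.94), and so was level with the start, which had 657. The 3 kb window, second to the start at 0 hpi, held 481, 569, 582, 687 and 503, a change of 0.06 (-0.12 to 0.25) at 48 hpi after a higher count at 24 hpi. Of the 26 downstream windows, all enriched at some time, 13 were higher and none was lower, against 37.1% and 18.6% of enriched windows in the genome.

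Upstream of Irf2, 2 windows were gained late. The -42 kb window held 12, 35, 26, 32 and 213 tags, or 3.68 (3.31 to 5.12), the largest rise in any of the 8 loci, and the -6 kb window 24, 17, 41, 56 and 220. In both the step came between 24 and 48 hpi, while the sum over the gene body was at 1.26 at 24 hpi and 1.04 at 48 hpi, an order that turned to 1.28 and 1.46 with bins enriched at all times as the reference. H3K4Me1 at -42 kb climbed more evenly, with 42, 73, 78, 107 and 137 tags.

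**Figure D4:**
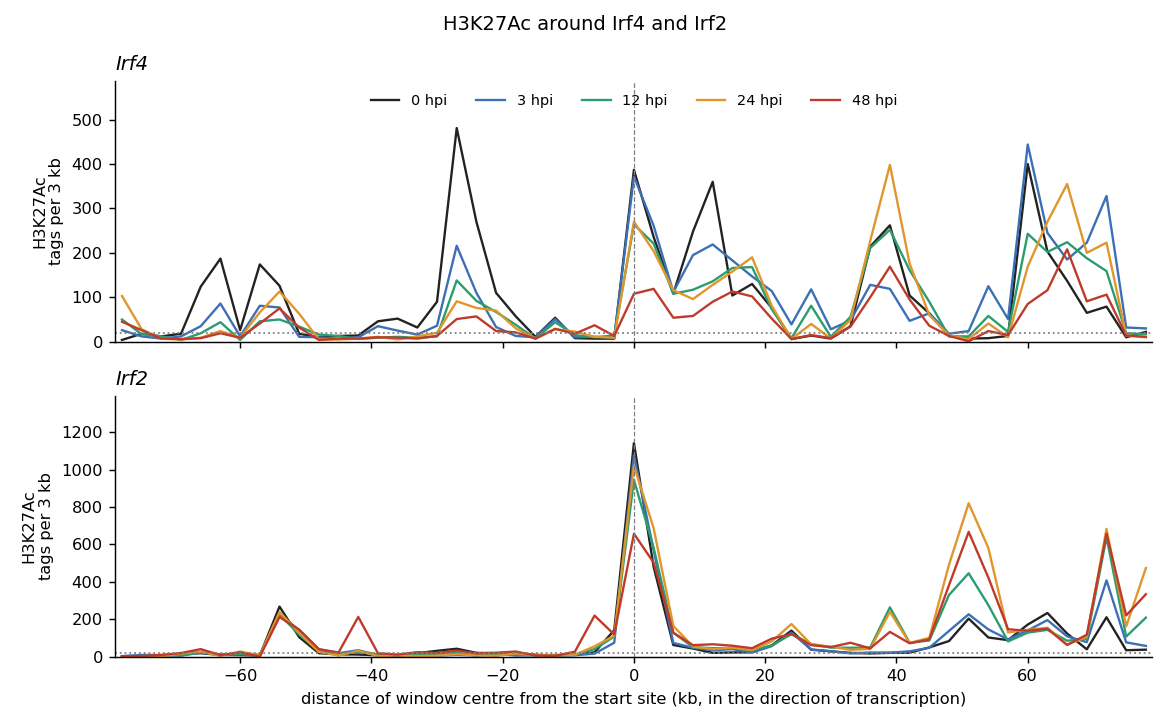
H3K27Ac tags per 3 kb window against the distance from the start in kb for Irf4 (top) and Irf2 (bottom), 1 line per time, genome mean dotted. At Irf4 the 0 hpi line peaks at -27 kb with 481 tags and the 48 hpi line is at 51, whereas at Irf2 the 51 kb window climbs from 204 to 667.

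At Irf7 other windows of the locus rose along with the start. The locus sum changed by 0.55 (0.47 to 0.62), and its enriched windows went from 9 at 0 hpi to 21 at 48 hpi. This count also rose at loci whose sum did not, from 11 to 21 at Irf5, 20 to 30 at Irf3 and 19 to 26 at Irf9. It went from 23 to 34 at Irf2 and from 16 to 17 at Irf1, and fell from 30 to 23 at Irf4 and from 40 to 34 at Irf8. The -42 kb window of Irf7, in an intron of Deaf1, held 31, 24, 53, 224 and 359 tags, or 3.34 (3.00 to 4.11). It became the highest of the locus. The 48 kb window, in Rassf7, held 16, 35, 144, 191 and 153, or 2.91 (2.51 to 4.10), with its rise at 12 hpi. H3K4Me1 rose with H3K27Ac in both, from 40 to 166 and from 64 to 161 tags. The single lower window, at 72 kb over the starts of Hras1 and Lrrc56, held 320 and 145 tags at 0 and 48 hpi, and the 39 kb window at the Phrf1 start, the highest at 0 hpi, stayed at 303 to 348. This locus is gene-dense, so a window cannot be assigned to Irf7 from these data.

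At Irf5 the highest window at 48 hpi was at -6 kb, with 505, 388, 690, 1041 and 602 tags, above the 517 of the start. Its -18 kb window was the only lower window, at 209, 107, 111, 99 and 48, or -2.01 (-2.61 to -1.66). The gains at 18 and 66 kb, both in introns of Tnpo3, reached 84 and 50 tags from 13 and 8.

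At Irf1 the -6 kb window, between genes, held more H3K27Ac than the start at every time, with 648, 652, 569, 689 and 386 tags. Just past the start, the 6 kb window at the end of the gene held 34, 30, 55, 82 and 108 tags, or 1.53 (1.10 to 2.27), and its H3K4Me1 went from 23 to 171 tags. The 30 kb window held 129, 55, 44, 27 and 20, or -2.42 (-3.45 to -2.00), with H3K4Me1 from 234 to 59. The largest rise of the locus rested on a low count, from 5 to 42 tags at 66 kb, or 2.23 (1.73 to 4.77), and the 33 kb window went from 65 to 25. These last 3 windows lie in introns of Gm12216.

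The H3K27Ac-enriched stretch of 1 kb bins at the start, with gaps of at most 1 bin, went between 0 and 48 hpi from 5 to 20 kb at Irf1, from 12 to 25 kb at Irf2, from 4 to 11 kb at Irf3 and from 1 to 6 kb at Irf7. It went from 16 to 20 kb at Irf5, from 2 to 4 kb at Irf9, from 22 to 21 kb at Irf4 and from 43 to 33 kb at Irf8. These H3K27Ac lengths rest on at least 17 thinned tags per bin. They were not computed under the other scalings or for all gene starts, so how common such widening is was not measured. For H3K4Me1 the stretch at Irf1 went from 17 to 33 kb. At Irf8 it was 56 kb at 0 and 3 hpi and 2 to 3 kb later, a break near the start and not a loss over the locus, in which 48, 46, 46, 47 and 46 of the 53 windows were enriched for H3K4Me1 at the 5 times. At the other members the H3K4Me1 stretch was 0 to 12 kb at every time.

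Irf3 and Irf9, signalling members made in most cells, had locus sums close to those at 0 hpi in thinned tags. So had Irf5, with a change of -0.12 (-0.18 to -0.05). Bins enriched at all times as the reference raise 48 hpi H3K27Ac by 0.42, more than the size of any of these changes. The Irf3 locus changed by -0.07 (-0.13 to -0.00), its largest rises being 18 to 59 tags at 39 kb and 11 to 39 at 45 kb in Prr12, and its only lower window 171 to 69 tags at 54 kb over the Prr12 start. Its highest windows outside the start were those of the Scaf1 start, 329 tags at 0 hpi, and of Nosip and Prrg2, 264 at 48 hpi. The Irf9 locus changed by -0.19 (-0.24 to -0.13). Its -63 kb window at the Pck2 start was the highest at 0 and 48 hpi, with 842 and 521 tags, and the 75 and 72 kb windows rose from 58 to 135 and from 34 to 78.

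H3K4Me1 changed past 2-fold in fewer locus windows than H3K27Ac. Of 281 windows enriched for it, 36 (12.8%) were higher and 25 (8.90%) lower at 48 hpi, against 27.5% and 12.3% of the 123727 enriched windows of the genome. With background bins as the reference the same counts in the loci were 88 and 3, and the genome shares were not recomputed. The pairings that follow are in thinned tags and were not recomputed under the other scalings. Background bins raise 48 hpi H3K4Me1 by 0.755, more than the median fall of -0.61 given below. In the 51 windows higher in H3K27Ac, H3K4Me1 was higher in 27 (52.9%), against 66.4% of such windows in the genome, and its median change was 1.0 against 1.42. Of these windows 31 (60.8%) were enriched for H3K4Me1 already at 0 hpi, against 38.3%. In the 41 windows lower in H3K27Ac, H3K4Me1 was lower in 11 (26.8%), against 37.3% in the genome, with a median of -0.61 against -0.79, and 36 (87.8%) were still enriched at 48 hpi, against 75.9%. H3K4Me1 in thinned tags was called against the direction of H3K27Ac in none of these windows. The shares in the genome were 0.628% of the higher and 0.280% of the lower windows.

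The windows that the results turn on differ in their Irf-type elements, of which a few are printed with 10 bases on each side. The names give the window by its distance from the start, the coordinates are mm9, and capitals mark the matched element in its own direction.
Irf1 -6 kb window, chr11:53576528-53576557, plus strand: acgttggcaaGAAAGCGAAActcaagcccc
Irf2 -42 kb window, chr8:47782002-47782031, minus strand: aaaattttagGAAACAGAAAatcggcattc
Irf2 -6 kb window, chr8:47818918-47818947, minus strand: tatttcactgGAAAAAGAAAcaacccttag
Irf2 78 kb window, chr8:47902755-47902784, plus strand: tgacaatcaaGGAAGGGAAActggtaagat
Irf4 -27 kb window, chr13:30812776-30812805, plus strand: aaaggacagaGAAAGAGAAAactgtgtttg
Irf4 -27 kb window, chr13:30814953-30814982, plus strand: cagagagagaGAAAGAGAAAgggagggagg
Irf7 0 kb window, chr7:148451989-148452018, plus strand: tgcatctcagGAAAATGAAAcctaaacagt
Irf8 -54 kb window, chr8:123205268-123205297, plus strand: gaggaacgagGAAATGGAAActcagggagg
Irf8 0 kb window, chr8:123258934-123258963, plus strand: tgcctatttgGGAAATGAAAggggtataaa
Irf8 33 kb window, chr8:123292196-123292225, minus strand: aaagtagcagGAAAAAGAAAgctatcggcc

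The Irf1 -6 kb element, the 2 at Irf4 -27 kb, both at the upstream Irf2 windows, the Irf7 element, which lies 0.376 kb into the gene in an intron and just upstream of another coding start, that of transcript Irf7-201 at chr7:148451946, and those at Irf8 -54 and 33 kb are response elements. Those at Irf2 78 kb and at the Irf8 start, the latter -1.31 kb from it, are composite elements. The -39, 12 and 30 kb windows of Irf8 held neither element. Of the 239 windows enriched for H3K27Ac, 31.8% held a response element and 26.8% a composite element, against 36% and 27.8% of all enriched windows. For gamma-activated sites the shares were 59.0% and 61.5%, and for C/EBP sites 66.9% and 71.4%. The family's windows thus held no more of these letters than other enriched windows.

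The genes around the family in the interferon pathway moved in both directions at their starts. The medians below are H3K27Ac changes at 48 hpi and stand against -0.14 for all starts, and the shares of all starts given above apply.

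Among 18 sensors and kinases that act on Irf proteins, 2 were higher and 4 lower, with a median of -0.06, but none was lower with bins enriched at all times as the reference and 2 with background bins. The rise at Tlr7, an RNA sensor, was the largest, with 17, 28, 86, 375 and 527 tags, or 4.60 (4.26 to 5.74). Ikbke, a kinase of Irf3 and Irf7, held 138, 79, 471, 645 and 470. Tlr9, a DNA sensor, went from 530 to 221, Tmem173 from 735 to 320 and Ddx58 from 250 to 117.

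Among 13 partner factors and cofactors none was higher and 5 were lower, with a median of -0.95, or 2 lower, Spib and Ikzf3, with bins enriched at all times as the reference. Ikzf3, a lymphoid zinc-finger factor, held 696, 472, 157, 131 and 54 tags, or -3.57 (-4.12 to -3.29). Spib, an Ets factor that binds composite elements with Irf4, went from 359 to 116 and Irf2bp1, a corepressor of Irf2, from 471 to 176. Spi1, which encodes PU.1, held 728, 871, 853, 898 and 641 tags.

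Of the interferon-stimulated genes 29 of 30 were found, 1 was higher and 8 were lower, with a median of -0.70, or 2 higher and 4 lower with bins enriched at all times as the reference. Oas2 went from 42 to 117 tags. Ifit2 went from 481 to 333, 307, 185 and 109, Xaf1 from 178 to 48 and Psmb8, an immunoproteasome subunit, from 726 to 231.

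The genes outside the family whose starts were most alike over the 15 libraries, by Euclidean distance in log2 of tags plus 5, were Ccr10, Zfp385a and Rnd2 for Irf7, at distances of 1.40, 1.55 and 1.59. For Irf4 they were Ccdc88c, Pomt2 and Srm, at 1.23, 1.27 and 1.28. The median distance to all genes was 8.76 for Irf7 and 9.28 for Irf4. Ccdc88c held 436, 440, 323, 235 and 148 H3K27Ac tags, a course close to that of Irf4.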

How the data were processed

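ChIP-seq tags were deposited per library as genome positions of 36 bp on mm9, with no strand and no count or signal column, for 3 marks at 5 times. Per the study's methods the authors aligned reads with Eland or Bowtie without mismatches and removed identical and non-unique tags, and which aligner served which library is not given in the sources used here. Identical positions remaining in the deposited files were reduced to 1 tag, each tag was placed at its middle, and libraries of a mark were thinned at random to the smallest (seed 7). Chromosomes 1 to 19 and X were used. No tag lay past a chromosome end or in 82908 bins of 1 kb with unknown bases only, a check of the build. Starts and gene models came from the mm9 annotation, sequences from the mm9 genome. The 2-fold call and the intervals of the ratio were tested on simulated Poisson counts at gene starts. Tag counting and the call of enriched windows were not part of that test. Intervals were exact Poisson or conditional binomial intervals (Python 3.11.15, numpy 2.4.6, pandas 2.3.3, scipy 1.17.1). Members, gene lists and the rule for what is named (per locus the 2 largest rises and falls past 2-fold and the highest windows at 0 and 48 hpi, per list up to 3 genes past 2-fold in each direction, and the 3 nearest genes) were chosen with earlier results of these data known. Sums by side, printed sites and windows named outside this rule were chosen after the values were seen. Older symbols were matched for 3 list genes, and Nlrc5 was not found. The list of receptors and their signalling genes is not reported here.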

Additional observations from a re-analysis of the deposited data

How the results depend on the processing

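No paired analysis was possible because no time point was measured in more than a single library of a mark, and for the same reason no library could be left out. Of 240 changes at the starts under 10 other settings, 214 stayed inside the counting interval of the reported value, 26 moved out of it and none past 2-fold reversed. Those that stayed were 66 of 80 for H3K27Ac, 68 of 80 for H3K4Me1 and all 80 for H3K27Me3, whose small counts give wide intervals. The start of the gene record differs from the start used at Irf5 only, so that setting could move no other member. The annotated start with most H3K27Ac is the start used at Irf1, Irf2, Irf3 and Irf4, so that setting could not move these. Only changes past 2-fold could count as reversed, and 1 of them, H3K4Me1 at Irf2, came from -1.25 to 0.00 at the highest. With bins enriched at all times as the reference, the H3K27Ac change of every member but Irf7 moved out of its interval. The H3K27Ac change ranged from -1.90 to -1.15 at Irf4, from -1.27 to -0.77 at Irf8 and from 0.87 to 1.72 at Irf7. Members lower in H3K27Ac numbered 2, and 1 with bins enriched at all times as the reference or with 3-fold for a call, 3 with another random thinning or with the tags as deposited, where Irf5 joined, 4 in 1 kb windows and 5 with 1.5-fold for a call, and members higher numbered 1, and 0 in 1 kb windows or with 3-fold. Members lower in H3K4Me1 numbered 1, and 0 with background bins, 1 kb windows or 3-fold, 2 at the annotated start with most H3K27Ac and 4 with 1.5-fold. Locus windows higher in H3K27Ac numbered 51, and 86 with bins enriched at all times and 28 of 157 with enrichment set at 4-fold over the genome mean. Windows lower numbered 41, and 26 with bins enriched at all times. Windows higher in H3K4Me1 numbered 36, and 88 with background bins, and windows lower 25, and 3 with background bins and 16 of 207 with the 4-fold threshold, where fewer windows were counted. The cause of the other differences was not tested. The 2 other scalings were also applied, after the data were seen, to all members before 48 hpi, to the gene lists and to the sums by side at Irf2, Irf4 and Irf8. With bins enriched at all times, members lower in H3K27Ac at 3 hpi went from 1 to 0 and members higher in H3K4Me1 at 3 hpi from 1 to 0. With background bins, members higher in H3K27Ac went from 1 to 0 at 12 hpi and from 1 to 3 at 24 hpi, and members higher in H3K4Me1 from 1 to 3 at 3 hpi and from 0 to 3 at 12 hpi. Windows called before 48 hpi and the other settings at those times were not recomputed. Shares over all starts and over the genome were computed in thinned tags only. With background bins the 24 hpi H3K27Ac values moved most, to 1.96 at the Irf7 start, -0.76 in the Irf8 downstream sum and -0.48 in the Irf4 upstream sum.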
